A study of Mus musculus with 8 samples.

Results

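The 9 genes described here, Npy, Vip, Prph, Phox2a, Nefl, Tubb2b, Chrnb4, Th and Tubb3, are genes of autonomic ganglion neurons that were read in RNA from pancreatic islets. They are 9 of the 17401 genes with a value in at least 1 library. The list was drawn up with their levels in these libraries in view, from the contrast of ob/ob with ob/+ islets and from how the genes varied together between libraries. Their values are therefore given as a description, with no test, and tests are given only for genes outside the 9.

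The libraries came from islets of C57BL/6 mice aged 12 weeks, with 4 libraries of each genotype, ob/+ and ob/ob. The ob allele disrupts the leptin gene Lep, so ob/ob mice make no working leptin and become obese, and ob/+ mice carry 1 working copy. Islets were released from the pancreas with collagenase through the duct, purified on a density gradient and picked by hand. Whether the libraries of a genotype came from different mice is not in the labels, so a p-value below measures library-to-library spread, part of which may be technical.

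Pancreatic islets are reached by sympathetic and parasympathetic axons, and small intrapancreatic ganglia lie in the lobules, some of them against islets. Ganglion neurons receive acetylcholine on nicotinic receptors and release acetylcholine, noradrenaline, nitric oxide or peptides such as VIP and neuropeptide Y onto islet cells and vessels. Most of a neuron's messenger RNA lies in its cell body, and axons carry less. Th and Npy are also known from islet endocrine cells of rodents, and Tubb3 from many cell types besides neurons.

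The start regions of the genes for both peptides, of the peripheral neurofilament and of the catecholamine enzyme are shown because cyclic AMP, which VIP itself raises, acts on peptide and enzyme genes through a short element that can be read in the sequence. RefSeq (GRCm38.p6) gave a window for 7 of the 9 genes, each of 250 bases before and 50 bases from the annotated start, printed 5′ to 3′ on the gene's strand. Capitals mark matches to TGACGTCA, the full cyclic AMP response element, and to its short form without the last base, which every full element also contains; both were searched on both strands. Capitals also mark the TATA box, searched as TATAAA on the gene's strand. Over the 32851 windows of the table, 1.79% hold the full element, 3.21% the short form and 8.32% the TATA box.
Npy, chr6:49822460-49822759, plus strand: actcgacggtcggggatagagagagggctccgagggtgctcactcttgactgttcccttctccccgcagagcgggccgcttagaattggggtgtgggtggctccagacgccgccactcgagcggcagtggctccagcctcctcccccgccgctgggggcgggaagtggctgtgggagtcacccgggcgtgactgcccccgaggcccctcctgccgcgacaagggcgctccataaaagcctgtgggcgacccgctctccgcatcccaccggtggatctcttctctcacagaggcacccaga
Vip, chr10:5638968-5639267, plus strand: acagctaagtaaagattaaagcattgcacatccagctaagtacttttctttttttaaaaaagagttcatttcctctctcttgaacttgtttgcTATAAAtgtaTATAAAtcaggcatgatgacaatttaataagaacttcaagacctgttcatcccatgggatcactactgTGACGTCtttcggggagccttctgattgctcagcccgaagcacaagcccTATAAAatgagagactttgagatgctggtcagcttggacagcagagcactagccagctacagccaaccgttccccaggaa
Prph, chr15:99054924-99055223, plus strand: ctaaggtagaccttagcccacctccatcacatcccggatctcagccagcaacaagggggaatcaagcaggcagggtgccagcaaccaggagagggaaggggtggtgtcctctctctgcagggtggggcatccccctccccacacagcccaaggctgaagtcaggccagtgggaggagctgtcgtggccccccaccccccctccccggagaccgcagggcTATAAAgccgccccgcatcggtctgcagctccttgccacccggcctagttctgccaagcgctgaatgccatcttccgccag
Th, chr7:142899946-142900245, minus strand: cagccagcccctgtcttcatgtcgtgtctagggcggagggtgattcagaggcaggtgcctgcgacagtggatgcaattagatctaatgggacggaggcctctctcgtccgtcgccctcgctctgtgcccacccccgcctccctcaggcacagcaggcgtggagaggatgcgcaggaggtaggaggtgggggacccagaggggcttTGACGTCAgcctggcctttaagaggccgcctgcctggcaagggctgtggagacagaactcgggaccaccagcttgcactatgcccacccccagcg

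The Th window holds the full element, its first base 45 bases before the RefSeq start. That start lies inside the longer span given below for Th, which is from GENCODE and begins farther upstream on the minus strand. The Vip window holds the short form 79 bases before the start and the TATA box 30, 147 and 157 bases before it, and the Prph window holds the TATA box 31 bases before the start. None of these matches was found in the windows of Npy, Phox2a, Chrnb4 or Tubb3. These matches describe the sequence and were not tied to the levels below.

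The deposited values are FPKM, fragments scaled to transcript length and library size, a unit inferred from the values. Summed over genes they came to 820968 to 880570 in ob/+ and 920734 to 1004230 in ob/ob, and relative depth, estimated roughly from the steps between low values, was 0.979 to 1.033 of the mean over libraries. The absolute depth is not given and could be estimated only roughly from the same steps, and counting error was not computed. The 11747 genes that reached 1 FPKM in 4 or more libraries were tested with limma on log2(FPKM + 1), and a gene was called at an adjusted p under 0.05. Of these, 1243 (10.6%) were called lower and 965 (8.21%) higher in ob/ob, and the median log2 fold change was -0.07. Library ob/+ 4 held the most acinar transcripts and library ob/ob 3 the most lymphocyte transcripts. With both left out 5668 genes were called, 1024 higher and 4644 lower. The ratio of higher to lower calls over all genes also moved with scaling. Higher calls made up 43.7% of the main calls, 52.4% with upper-quartile scaling and 53.2% with median centring. When the library total was taken without the 10 most abundant genes they made up 67.3%, and when it was taken without acinar genes 9.38%. With each library rescaled to the same total (as in TPM) they made up 14.2%.

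All 9 genes had every ob/ob library below every ob/+ library, which also held for 1259 (10.7%) of the tested genes. Nothing is read from this count, because the genes were selected on it. All 9 passed the filter on low values, but Phox2a, Nefl and Tubb2b reached 1 FPKM in no ob/ob library and passed through the ob/+ libraries alone. The 9 fell into a wide range of sizes. Npy, Vip, Prph, Phox2a and Nefl stood at 6.77% to 9.74% of their ob/+ mean in ob/ob, Tubb2b at 21.6%, Chrnb4 at 37.7%, Tubb3 at 46.4% and Th at 68.6%. Among all tested genes, 50 (0.426%) had an ob/ob mean under 20% of the ob/+ mean and 311 (2.65%) under 50%. In bulk RNA, fewer neurons, less RNA per neuron and more RNA from other cells cannot be told apart, since FPKM is scaled to library size. The mean of the insulin gene Ins2 was 314300 FPKM in ob/+ and 464000 in ob/ob. Its part in the levels of the 9 genes was not tested.

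**Figure D1:**
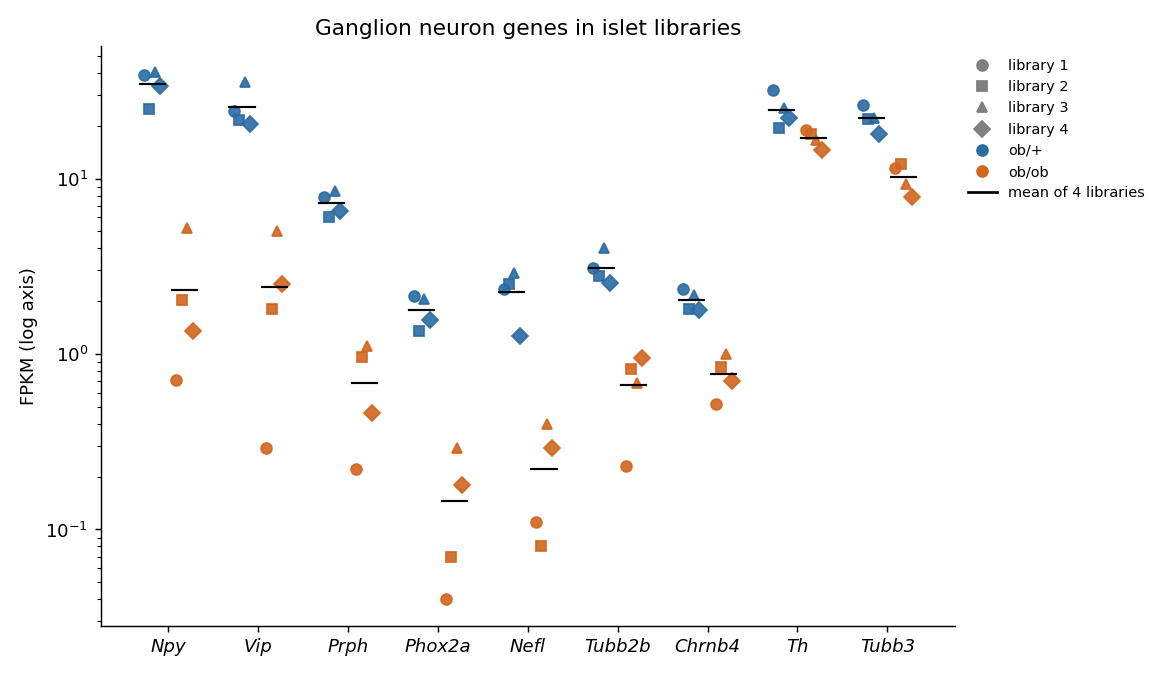
FPKM (log axis) of the 9 genes in each of 4 ob/+ (blue) and 4 ob/ob (orange) libraries, with marker shape for the library number and a black line at the group mean. Every ob/ob point lies below every ob/+ point of the same gene, with a wide gap for Npy, Vip and Prph and almost none for Th, whose lowest ob/+ library (19.5) is next to its highest ob/ob library (18.9).

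The label of a ganglion was checked against defining markers outside the 9. Hand2, a regulator of sympathetic and enteric neurons, and Chrna3, the ganglionic nicotinic subunit, were present in ob/+ at means of 3.79 and 3.24 FPKM. Dbh, which turns dopamine into noradrenaline, was only 0.08 to 0.28 FPKM in ob/+ and 0 to 0.03 in ob/ob, and Gata3, a regulator of sympathetic neurons, was 0.11 or less in all 8 libraries. Chat, which makes acetylcholine, was low too, at 0.06 to 0.43 FPKM in ob/+. Th was at 14.6 FPKM or more in every library, and Slc18a2, which loads noradrenaline and other monoamines into vesicles, was at 0.78 to 1.29 FPKM in ob/+.

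Npy (chr6:49822710-49829507, plus strand, GRCm38) encodes neuropeptide Y, a transmitter of sympathetic and some intrinsic neurons that lowers insulin release. Its FPKM in ob/+ 1 to 4 was 38.77, 24.97, 40.3 and 33.45, and in ob/ob 1 to 4 it was 0.71, 2.03, 5.22 and 1.35. Every ob/+ library lay at least 4.78-fold above the highest ob/ob library, and ob/ob 3 was the high one of its group while ob/ob 1 was the low one. The means were 34.4 ± 6.92 in ob/+ and 2.33 ± 2.0 in ob/ob (SD, n = 4 each), a level 14.8-fold lower and a log2 fold change of -3.56 on the log2(FPKM + 1) scale, which understates the change of low genes.

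Vip (chr10:5639218-5647617, plus strand) encodes vasoactive intestinal peptide, released by parasympathetic ganglion neurons and a stimulus of insulin release. It was read at 24.18, 21.49, 35.7 and 20.41 FPKM in ob/+ 1 to 4 and at 0.29, 1.8, 5.01 and 2.52 in ob/ob 1 to 4. Again ob/+ 3 and ob/ob 3 were the highest of their groups and ob/ob 1 the lowest, and the groups did not overlap. Mean FPKM was 25.45 ± 7.02 in ob/+ and 2.41 ± 1.97 in ob/ob (SD, n = 4 each), 10.6-fold lower, with a log2 fold change of -3.13. Spread within ob/ob was wider for Vip than for any other of the 9 genes, 17.3-fold from lowest to highest library, against 1.75-fold within ob/+.

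Th (chr7:142892752-142931128, minus strand) encodes tyrosine hydroxylase, the rate-limiting enzyme of catecholamine synthesis. Its FPKM was 31.87, 19.5, 25.33 and 22.21 in ob/+ 1 to 4 and 18.86, 17.9, 16.48 and 14.6 in ob/ob 1 to 4. The groups touched almost: the lowest ob/+ library exceeded the highest ob/ob library 1.03-fold. The means, 24.7 ± 5.32 and 17.0 ± 1.85 (SD, n = 4 each), differed 1.46-fold, with a log2 fold change of -0.50. Unlike for the peptides, ob/ob 1 was the highest library of its group.

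Chrnb4 (chr9:55028154-55048779, minus strand) encodes the beta 4 subunit, which with the alpha 3 subunit forms the main nicotinic receptor of autonomic ganglia. It stood at 2.34, 1.81, 2.17 and 1.79 FPKM in ob/+ 1 to 4 and at 0.52, 0.84, 1.00 and 0.70 in ob/ob 1 to 4, with ob/ob 1 lowest and ob/ob 3 highest. The mean was 2.03 ± 0.272 in ob/+ and 0.765 ± 0.204 in ob/ob (SD, n = 4 each), 2.65-fold lower, a log2 fold change of -0.78. Chrnb4 lies in a cluster with Chrna3 (chr9:55010111-55026562, minus strand) and Chrna5 (chr9:54980880-55007779, plus strand). Both cluster neighbours kept less than the 37.7% of Chrnb4, a difference that was not tested: Chrna3 was at 8.33% of its ob/+ mean (3.24 against 0.27 FPKM; log2 fold change -1.74, limma adjusted p = 3.08e-05 in the fit without a filter) and Chrna5, below the filter and not tested, at 18.4%. An antisense gene, Gm47877, overlaps Chrnb4, and whether reads were counted by strand is not stated, so their reads may not be told apart.

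Prph (chr15:99055174-99058978, plus strand) encodes peripherin, the intermediate filament of peripheral neurons. It was read at 7.88, 6.00, 8.45 and 6.5 FPKM in ob/+ 1 to 4 and at 0.22, 0.96, 1.11 and 0.46 in ob/ob 1 to 4. The gap between the groups was the widest of the 9 genes, 5.41-fold from the lowest ob/+ to the highest ob/ob library. Mean FPKM was 7.21 ± 1.15 and 0.688 ± 0.418 (SD, n = 4 each), 10.5-fold lower in ob/ob, with a log2 fold change of -2.31.

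Nefl (chr14:68083863-68089095, plus strand) encodes the light neurofilament chain that sets axon calibre. Its FPKM was 2.35, 2.52, 2.90 and 1.27 in ob/+ 1 to 4 and 0.11, 0.08, 0.40 and 0.29 in ob/ob 1 to 4, and ob/+ 4 stood below the other ob/+ libraries. The mean was 2.26 ± 0.699 in ob/+ and 0.22 ± 0.152 in ob/ob (SD, n = 4 each), 10.3-fold lower, with a log2 fold change of -1.40. The medium chain gene Nefm, whose annotation overlaps Nefl on the opposite strand, was not called and had 122% of its ob/+ mean in ob/ob (3.54 against 4.32 FPKM; log2 fold change 0.23, limma adjusted p = 0.235). It was called higher with upper-quartile scaling (adjusted p = 0.0232) and with median centring (adjusted p = 0.0106).

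Tubb2b (chr13:34126748-34130466, minus strand) and Tubb3 (chr8:123411424-123422015, plus strand) encode beta tubulins of neurons, Tubb3 being the antigen of the usual antibody stain for nerve fibres. Tubb2b was read at 3.10, 2.77, 4.01 and 2.54 FPKM in ob/+ 1 to 4 and at 0.23, 0.82, 0.68 and 0.95 in ob/ob 1 to 4. Its mean was 3.11 ± 0.646 against 0.67 ± 0.313 (SD, n = 4 each), 4.63-fold lower in ob/ob, with a log2 fold change of -1.31. Here too ob/ob 1 was the lowest library, but ob/ob 4 and not ob/ob 3 was the highest of its group. The neighbouring gene Tubb2a shares 96.5% of its aligned coding bases with Tubb2b, so how reads were split between them is uncertain. Tubb2a, which is expressed widely, was not called (29.4 against 25.5 FPKM, log2 fold change -0.19, limma adjusted p = 0.268), though it was called lower without ob/+ 4 (adjusted p = 0.0155) and with 2 of the scalings.

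Tubb3 stood at 26.36, 21.72, 22.02 and 17.82 FPKM in ob/+ 1 to 4 and at 11.46, 12.17, 9.26 and 7.86 in ob/ob 1 to 4. Its mean was 22.0 ± 3.49 in ob/+ and 10.2 ± 1.99 in ob/ob (SD, n = 4 each), 2.16-fold lower, with a log2 fold change of -1.04. As for Th, the ob/ob libraries 1 and 2 were the higher ones and every ob/ob library kept more than 7 FPKM. A readthrough gene model, Gm20388, spans Tubb3 on the same strand, so some of its reads may have been assigned there.

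Phox2a (chr7:101818313-101822726, plus strand) encodes a homeodomain factor that specifies autonomic neurons and switches on Th and Dbh. It was read at 2.15, 1.36, 2.07 and 1.56 FPKM in ob/+ 1 to 4 and at 0.04, 0.07, 0.29 and 0.18 in ob/ob 1 to 4. At these levels 1 fragment is worth about 0.036 FPKM, a rough estimate, so the lowest ob/ob values stand for very few fragments. Mean FPKM was 1.79 ± 0.385 and 0.145 ± 0.114 (SD, n = 4 each), 12.3-fold lower in ob/ob, with a log2 fold change of -1.28. The end of Phox2a overlaps Inppl1 on the other strand, and reads there may not be told apart.

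FPKM is per length, so the 9 levels can be set in order. In ob/+, Npy was highest, followed by Vip, Th and Tubb3, whose means of 25.45, 24.7 and 22.0 FPKM lay within 1 SD of each other, then Prph at 7.21 and Tubb2b at 3.11. Nefl, Chrnb4 and Phox2a ended the order at 2.26, 2.03 and 1.79 FPKM, with neighbours within their spread. In ob/ob the order differed: Th (17.0) and Tubb3 (10.2) led, Vip (2.41) and Npy (2.33) came next and did not differ beyond their spread, nor did Chrnb4 (0.765), Prph (0.688) and Tubb2b (0.67) among themselves, and Nefl and Phox2a were lowest at 0.22 and 0.145.

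With the genotype means taken out, 7 of the genes mostly varied together over the 8 libraries, and Th and Tubb3 did not follow them. The list was chosen partly for this, so the correlations describe it and carry no p. They are Pearson's r over the 8 libraries between log2(FPKM + 1) values, each minus its genotype mean, and all points share their libraries. Among Npy, Vip, Prph, Phox2a, Nefl, Tubb2b and Chrnb4, 17 of 21 pairs had r over 0.5, with a median of 0.668 and a range of 0.326 to 0.939. Prph with Chrnb4 was the highest pair and Npy with Nefl the lowest. No r was computed for either genotype alone or for pairs of other genes. With the mean of the 9, the other tested genes had a median r of 0.466. Between Th or Tubb3 and those 7, 0 of 14 pairs were over 0.5, with a median of 0.0596, while Th with Tubb3 gave 0.737. Library ob/ob 1 was the lowest ob/ob library for 6 of the 9 genes (Npy, Vip, Prph, Phox2a, Tubb2b and Chrnb4). The share of all tested genes for which it was lowest was not computed, so nothing is read from this count. Library ob/ob 3 was the highest for 6 of 9 (66.7%), and over all tested genes it was the highest ob/ob library for 53.2%. In ob/+ the highest library was ob/+ 3 for 5 of the 9 and ob/+ 1 for 4 of the 9, against 24.6% and 28.5% of all tested genes.

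**Figure D2:**
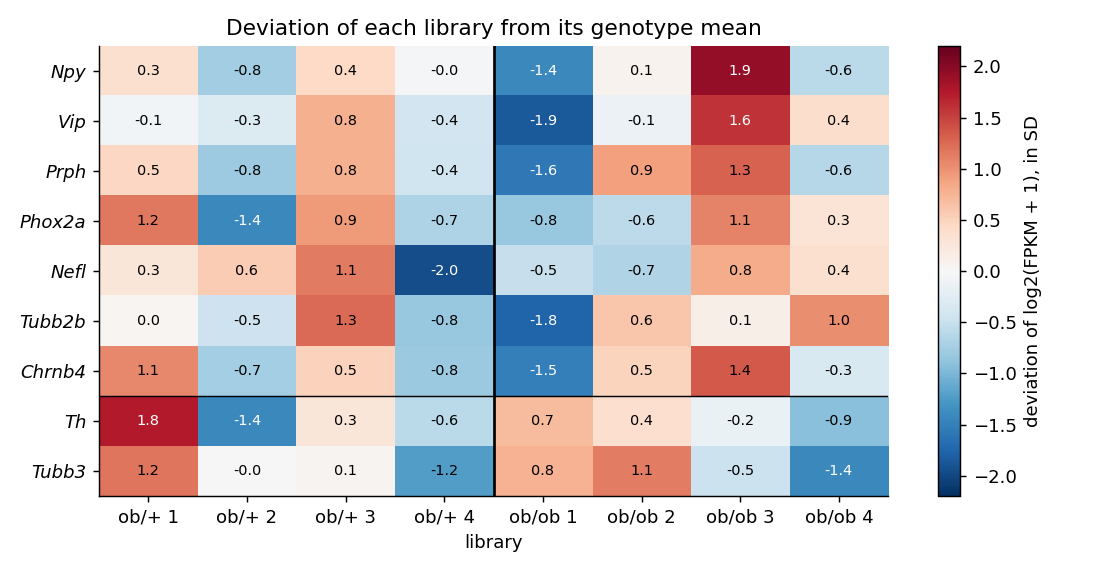
Each cell gives a library's deviation from its genotype mean in log2(FPKM + 1), in units of the gene's SD over the 8 deviations (red above, blue below); columns are libraries and rows the 9 genes. In ob/ob 1 the upper 7 rows are blue and Th and Tubb3 are red, and in ob/ob 3 the upper 7 rows are red, matching 17 of 21 pairs over an r of 0.5 among those 7 and 0 of 14 with Th or Tubb3.

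Beyond the 9, neuronal genes of 7 lists were tested in the same fit. These lists were drawn up with earlier results of these data known, so their counts are not independent evidence of a direction. Of 98 listed genes 92 had a value and 58 were tested. In ob/ob 28 of the 58 were called lower, 8 higher and 22 were not called, with a median log2 fold change of -0.31 beside -0.07 over all tested genes. Of the 58, 8 (13.8%) passed the filter with no ob/ob library at 1 FPKM, so that a difference was built into their passing: Slc18a3, Chrna3, Penk, Dpysl5, Rab3c, Cplx1, Gfra2 and Gfra3. The same held for 103 (0.877%) of the 11747 tested genes. For genes of this kind, the adjusted p given below is from the fit without a filter. For other genes it is from the main fit unless a setting is named, and p-values of different fits cannot be set against each other. Some of those genes, such as Hand2 and Syt1, reached 1 FPKM in ob/ob 3 but in no other ob/ob library. Without a filter, 45 of 92 were called lower and 7 higher, where 1486 of 17401 genes (8.54%) were called lower. Of the 34 that fell below the filter, 17 had every ob/ob library under every ob/+ library and 0 had the reverse. Of all 5654 genes below the filter with a value above 0 in some library, 490 (8.67%) had every ob/ob library under every ob/+ library. Leaving out both ob/+ 4 and ob/ob 3, a choice made after seeing the data, gave 36 lower and 8 higher calls of 58. Lower calls over all 11747 tested genes also rose in that setting, from 1243 to 4644, so the larger neuronal count is not particular to these lists.

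Among the ganglion regulators 1 of 3 tested genes was called lower and 0 higher. Hand2 was read at 4.15, 3.39, 4.16 and 3.48 FPKM in ob/+ 1 to 4 and at 0.45, 0.28, 1.01 and 0.54 in ob/ob 1 to 4, with no overlap (log2 fold change -1.63 ± 0.14 SE, limma adjusted p = 3.52e-09). The other two, Gata2 and Ebf1, which other cell types also use, were at 108% and 104% of their ob/+ means.

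Of the cholinergic and nicotinic genes 2 of 4 tested were called lower and 0 higher. Slc18a3, the vesicular acetylcholine transporter, stood at 2.45, 1.66, 2.77 and 1.29 FPKM in ob/+ 1 to 4 and at 0.05, 0.26, 0.24 and 0.10 in ob/ob 1 to 4 (log2 fold change -1.36, limma adjusted p = 0.000121 without a filter). Chrna3 was the other, and both passed the filter through ob/+ alone. Without a filter 5 of 9 were called lower and 0 higher. The choline transporter gene Slc5a7, below the filter, kept 16.2% of its ob/+ mean in ob/ob. Chrnb2, a nicotinic subunit with a wider distribution, was not called and kept 94.1% (9.59 against 9.02 FPKM), though it was called lower without ob/+ 4 (adjusted p = 0.0459). Ache, which breaks down acetylcholine, was not called either (adjusted p = 0.527).

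Catecholamine genes moved in both directions, with 2 of 6 tested lower and 1 higher. Ddc, which makes dopamine and serotonin and is expressed in islet cells, averaged 117 ± 8.94 FPKM in ob/+ and rose to 176 ± 6.81 in ob/ob (n = 4 each, SD), a log2 fold change of 0.58 with limma adjusted p = 2.20e-05. Maob, an amine-degrading enzyme, fell from 64.8 to 33.3 FPKM, and Gch1, which makes the cofactor of tyrosine hydroxylase, fell from 31.3 to 19.4 FPKM. Slc18a2, the vesicular monoamine transporter, was below the filter at 0.78 to 1.29 FPKM in ob/+ and 0.40 to 0.69 in ob/ob.

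The neuropeptides did not move as a group: 2 of 5 tested were lower and 2 higher. Penk, the enkephalin precursor, fell from 2.73 ± 0.298 to 0.38 ± 0.256 FPKM (SD, n = 4 each; log2 fold change -1.45, limma adjusted p = 3.74e-05 without a filter). Tac1, the substance P precursor, was called lower (log2 fold change -0.80, adjusted p = 0.0198), but its groups overlapped through ob/ob 3 at 1.08 FPKM. The Tac1 call was lost without ob/+ 2, ob/ob 2 or ob/ob 4 (limma adjusted p = 0.0581, 0.0618 and 0.0540). Cartpt and Pdyn, peptide precursors found in endocrine cells too, rose to 4.72 and 4.30 times their ob/+ means, Pdyn from 42.5 to 183 FPKM. Gal, the galanin gene, had a log2 fold change of -1.83 with limma adjusted p = 0.0581. It was at 11.03, 5.44, 12.93 and 31.81 FPKM in ob/+ 1 to 4 and at 3.75, 1.92, 4.11 and 2.14 in ob/ob 1 to 4, not overlapping, and ob/+ 4 was by far the highest. Gal passed the threshold without ob/+ 4 (adjusted p = 0.0294) and without ob/+ 2 (adjusted p = 0.0270). Nos1, the neuronal nitric oxide synthase, and Grp, gastrin-releasing peptide, were below the filter. Nos1 stood at 0.97 to 2.56 FPKM in ob/+ and 0.10 to 0.47 in ob/ob, and Grp at 0.99 to 3.07 and 0 to 0.91. Adcyap1, the gene for the VIP relative PACAP, was 0.27 FPKM or less in all libraries.

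Cytoskeletal and axon genes made up the largest list, with 12 of 22 tested lower and 1 higher. Stmn2, a tubulin-binding protein of growing axons, stood at 9.55, 9.20, 11 and 8.01 FPKM in ob/+ 1 to 4 and at 0.89, 1.57, 1.85 and 1.82 in ob/ob 1 to 4 (log2 fold change -2.06 ± 0.14 SE, limma adjusted p = 9.10e-11). Gap43, a growth cone protein, fell to 14.8% of its ob/+ mean (5.66 against 0.835 FPKM), Sncg, gamma-synuclein, to 20.5% (20.5 against 4.19) and Uchl1, an abundant neuronal deubiquitinase, to 33.1% (32.9 against 10.9). Like Th and Tubb3, Uchl1 kept several FPKM in each ob/ob library, 9.63 at the lowest. Other genes often used as neuronal markers were present in ob/ob at or near their ob/+ means and were not called: Map2 at 112% (called higher with upper-quartile scaling and median centring), Mapt at 117% (called higher with median centring) and Elavl4 at 84.4% (called lower without ob/+ 4 and with 2 of the scalings). Crmp1, a collapsin response mediator, was the gene called higher, at 195% of its ob/+ mean.

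Genes of synaptic vesicles and release split similarly, with 6 of 12 tested lower and 2 higher. Cplx1 and Syt1, which clamp and trigger vesicle fusion, fell to 10.01% (3.05 against 0.305 FPKM; limma adjusted p = 0.000434 without a filter) and 31.8% (2.97 against 0.945 FPKM; limma adjusted p = 1.88e-06) of their ob/+ means. Cplx2, a second complexin that was far more abundant in these islets, was not called, at 113 against 112 FPKM. Rab3c and Syn2 fell to 39.0% and 64.3%. Snap25 and Syp, vesicle fusion and vesicle membrane proteins shared with endocrine cells, rose to 132% and 126%, but neither passed the threshold with acinar genes left out of the library total (adjusted p = 0.144 and 0.347) or with each library rescaled to the same total (0.114 and 0.253). The Syp call was also lost without ob/ob 1, ob/ob 2 or ob/ob 3 (limma adjusted p = 0.0624, 0.0664 and 0.0663).

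Receptors for neurotrophic factors, through which target tissue maintains its nerves, had 3 of 6 tested lower and 2 higher. Gfra3 and Gfra2, co-receptors for artemin and neurturin, fell to 16.05% (2.83 against 0.455 FPKM) and 29.5% (1.99 against 0.588 FPKM), and Ret, the kinase they share, to 64.3% (20.5 against 13.2 FPKM). Ntrk2, the receptor for BDNF, and Gfra1, the co-receptor for GDNF, rose to 174% and 175%. Ngfr, the p75 neurotrophin receptor, was below the filter at 0.64 to 1.06 FPKM in ob/+ and 0.06 to 0.39 in ob/ob. Of the neurotrophic factors themselves 0 of 2 tested were called by limma (Nrtn, which encodes neurturin, had an adjusted p of 0.518), and 0 had an unadjusted p under 0.05. The other listed factors were below the filter. Without a filter 1 of 8 factors was called higher and 0 lower, where 1049 of 17401 genes were called higher.

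Schwann and satellite glia wrap axons and ganglion cell bodies. Of 21 listed glial genes 11 were tested, of which 6 were called lower and 0 higher, with a median log2 fold change of -0.37. Over all tested genes 10.6% were called lower and 8.21% higher, with a median of -0.07. Under some other settings, such as upper-quartile scaling and median centring, 1 glial gene was called higher. Gap43, 1 of the 6 called lower, is also on the list of cytoskeletal and axon genes, so its call is counted in both. Sox10, the regulator of the glial lineage, was at 1.16, 1.16, 1.10 and 1.16 FPKM in ob/+ 1 to 4 and at 0.10, 0.19, 0.30 and 0.25 in ob/ob 1 to 4 (log2 fold change -0.83, limma adjusted p = 3.11e-05 without a filter). L1cam, an adhesion protein of axons and glia, fell to 24.0% and Scn7a, a glial sodium channel, to 22.6%. Sox10 and Scn7a, 2 of the 6 called, passed the filter through ob/+ alone. S100b, below the filter, stood at 0.93 to 1.12 FPKM in ob/+ and 0.03 to 0.24 in ob/ob. Mbp, the gene of myelin basic protein, was not called and stood at 106% of its ob/+ mean. With the filter lowered to 0.5 FPKM in 2 libraries 10 of 17 glial genes were called, all lower, and with no filter 12 of 21, of which 11 were lower. Over all genes, 1435 of 13264 were called lower with that lowered filter and 1486 of 17401 with no filter.

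**Figure D3:**
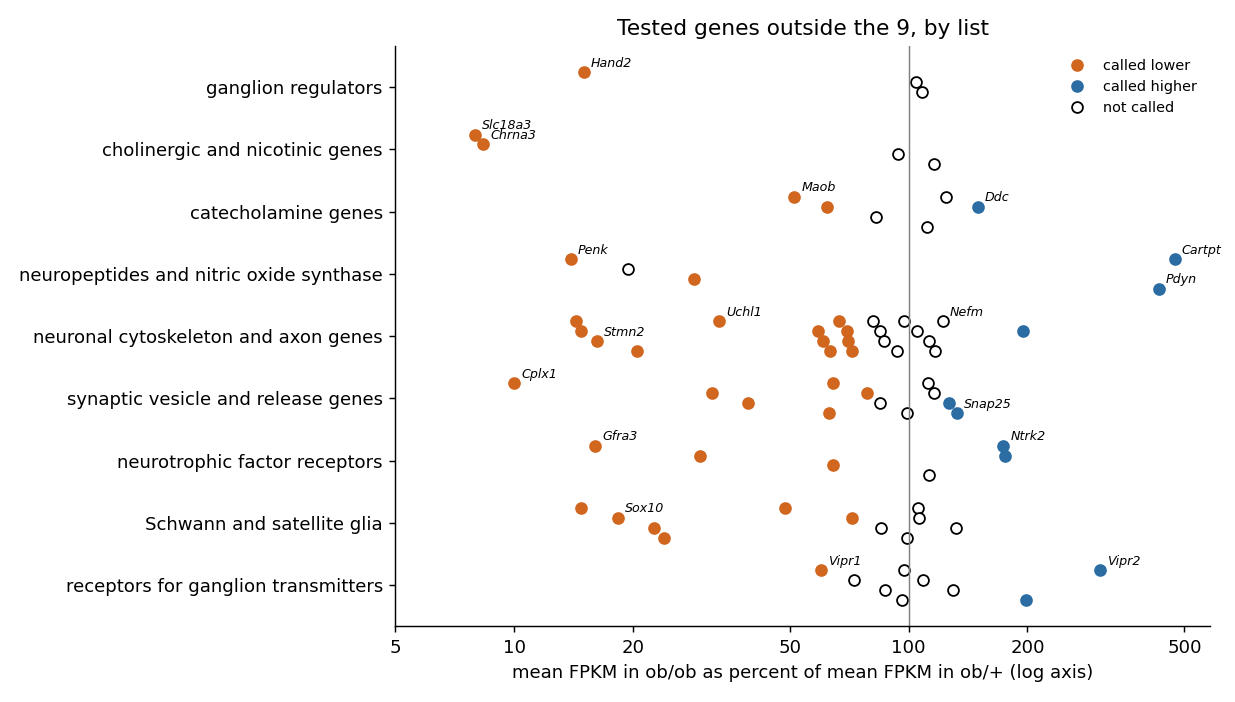
Mean FPKM in ob/ob as a percentage of the ob/+ mean (log axis) for each tested gene outside the 9, in rows by list; orange marks genes called lower, blue genes called higher and open circles genes not called, with adjusted p under 0.05 in limma. Genes such as Slc18a3, Chrna3 and Cplx1 sit near 10%, while open circles crowd around 100%, with 28 of the 58 neuronal genes orange and 8 blue.

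The receptors on which ganglion transmitters act in islets and vessels showed no common direction, with 1 of 9 tested lower and 2 higher. Both VIP receptors were called, in opposite directions. Vipr1 was at 14.55, 12.67, 15.25 and 9.90 FPKM in ob/+ 1 to 4 and at 7.16, 8.33, 8.28 and 7.61 in ob/ob 1 to 4 (log2 fold change -0.66 ± 0.13 SE, limma adjusted p = 0.000526). Vipr2 was at 1.01, 0.81, 0.92 and 0.87 FPKM in ob/+ 1 to 4 and at 2.83, 2.36, 3.05 and 2.78 in ob/ob 1 to 4 (log2 fold change 0.98 ± 0.12 SE, limma adjusted p = 1.17e-06). Galr2, a galanin receptor, rose to 199%. The neuropeptide Y receptor Npy1r and the muscarinic receptor Chrm3 were not called, at 96.3% and 97.2% of their ob/+ means. The adrenergic receptor Adra2a, at 130%, was not called by limma either (adjusted p = 0.121), but was called higher without ob/+ 2 (adjusted p = 0.0229) and with 3 of the scalings.

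Markers of other cells were summed in each library beside the neuronal genes. The 10 listed fibroblast and pericyte genes summed to 82.5 to 92.4 FPKM in ob/+ and to 71.6 to 98.3 in ob/ob, overlapping. Of these, 6 genes of fibroblasts were summed apart, a choice made after their values were seen. Col1a1, Col1a2, Col3a1, Dcn, Lum and Pdgfra together were 35.9 to 52.0 FPKM in ob/+ and 8.01, 11.95, 27.87 and 19.88 in ob/ob 1 to 4, lowest in ob/ob 1 and highest in ob/ob 3 as for Npy and Vip. Of the 9 tested fibroblast and pericyte genes 3 were called lower (Col1a1, Col1a2 and Col3a1) and 2 higher (Rgs5 and Acta2, of mural cells), while Pdgfrb and Cspg4 were not called. Of the 5 listed mesothelial genes 2 were tested and 1, Msln, was called lower, at 14.6% of its ob/+ mean (25.0 against 3.64 FPKM, limma adjusted p = 9.93e-07). Krt19, the other, was not called (adjusted p = 0.655), and the remaining 3 were at 0.14 FPKM or less in every library. The part that connective tissue had in the neuronal values was not tested.

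The 10 listed genes of lymphocytes and lymph nodes summed to 20.21, 8.48, 19.75 and 11.95 FPKM in ob/+ 1 to 4 and to 2.57, 13.93, 46.85 and 25.62 in ob/ob 1 to 4, so ob/ob 1 was lowest and ob/ob 3 highest for these too. The glial, smooth muscle and gut wall, and full fibroblast and pericyte sums were also lowest in ob/ob 1 and highest in ob/ob 3 among the ob/ob libraries. The acinar, duct, endothelial, mesothelial, macrophage and islet endocrine sums did not have both of these features. Over all tested genes, ob/ob 3 was the highest ob/ob library for 53.2%. Of the 2 tested, 0 were called (Cd79a, log2 fold change -0.66, limma adjusted p = 0.499; Cd79b, adjusted p = 0.295), and 0 had an unadjusted p under 0.05. Without ob/ob 3 the log2 fold change was -3.92 for Npy, -3.47 for Vip and -2.42 for Prph. Acinar genes summed to 30340 to 105300 FPKM in ob/+, with ob/+ 4 highest, and 15570 to 51870 in ob/ob. Of the 12 acinar genes 0 were called by limma and 3 had an unadjusted p under 0.05. Likewise 0 of 7 endothelial and 0 of 7 macrophage genes were called, with 0 and 2 at an unadjusted p under 0.05. Of 4 tested genes on the list of smooth muscle and gut wall 1, Kit, was called lower. The smooth muscle genes Myh11, Tagln and Des were not called, at 136%, 132% and 100% of their ob/+ means. Among 6 tested duct genes 0 were called lower and 2 higher, and among 10 islet endocrine genes 5 were called lower and 2 higher. The hormone genes of non-beta cells fell as well: Gcg 3.19-fold, Sst 4.56-fold and Ppy 2.92-fold.

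**Figure D4:**
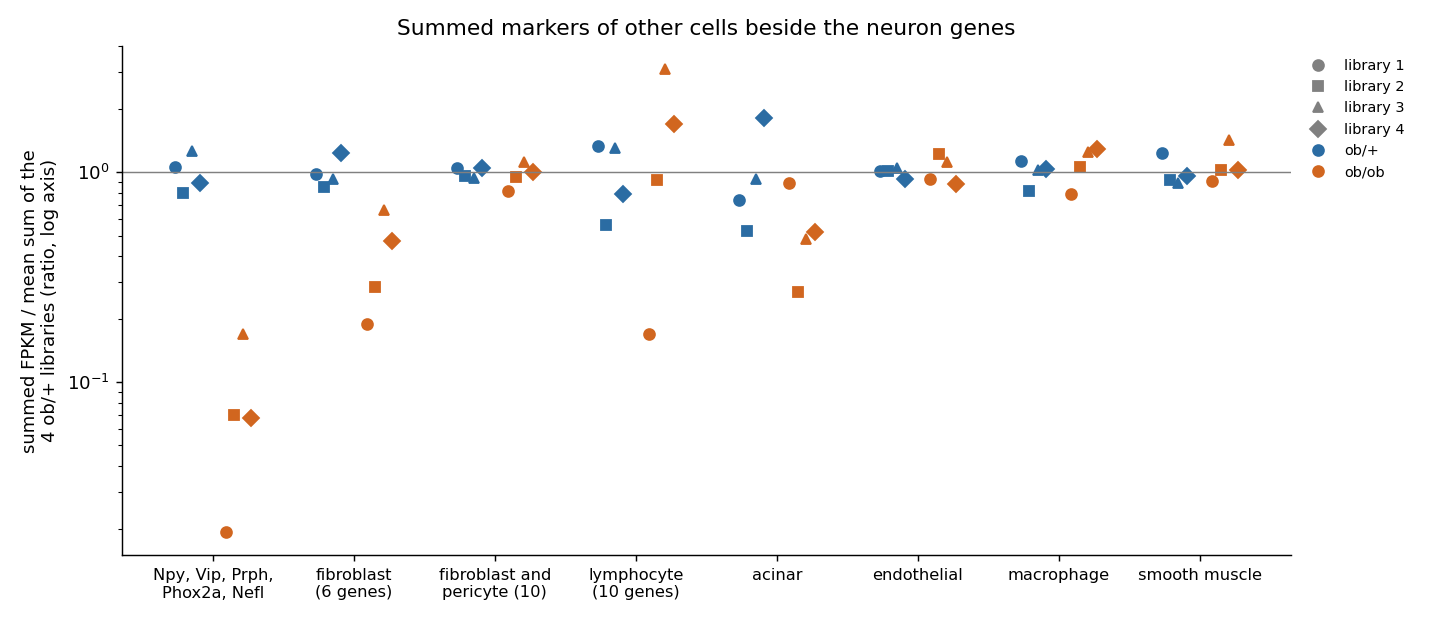
Summed FPKM of marker genes in each library divided by the mean sum of the 4 ob/+ libraries (ratio, log axis), for 5 of the neuronal genes and 7 sets of markers of other cells, of which the 6 fibroblast genes are part of the 10 fibroblast and pericyte genes; blue is ob/+, orange is ob/ob and the shape gives the library number. The neuronal, 6-gene fibroblast and acinar sums are below 1 in all 4 ob/ob libraries, and the acinar sums overlap with those of ob/+. Among the ob/ob libraries, all sums but the acinar and endothelial ones are lowest in ob/ob 1. Lymphocyte sums spread widely, and the sums of all fibroblast and pericyte, endothelial, macrophage and smooth muscle and gut wall genes stay near 1.

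The tested genes whose deviations within genotype were most like the mean of the 9 were also listed, 15 in all, with r from 0.948 to 0.982 over 8 libraries. The median over all tested genes was 0.466, so a shift common to many genes is part of this measure, and acinar genes lay at a median of -0.451. The 3 most alike, Kcnab2 (0.982), Ift43 (0.979) and Mcam (0.979), had small log2 fold changes of -0.35, -0.43 and -0.33, of which that of Ift43 was called (limma adjusted p = 0.0211). The Ift43 call was lost without ob/+ 1, ob/+ 3, ob/ob 1 or ob/ob 4 (adjusted p of 0.0784 to 0.1005). Of the 15, Htr3a, Uchl1 and Reep1 had the largest log2 fold changes. Htr3a (0.976), a serotonin-gated channel of peripheral neurons, was at 4.06, 2.93, 4.21 and 2.84 FPKM in ob/+ 1 to 4 and at 0.08, 0.38, 0.45 and 0.31 in ob/ob 1 to 4 (log2 fold change -1.78, limma adjusted p = 1.08e-05 without a filter). Reep1 (0.950), a shaper of the axonal endoplasmic reticulum, was at 1.31 to 2.24 FPKM in ob/+ and 0.16 to 0.57 in ob/ob. Htr3a and Reep1 reached 1 FPKM in no ob/ob library and passed the filter through ob/+ alone.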

How the data were processed

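RNA of 8 islet libraries was sequenced, and the authors deposited 1 table per library with values that were taken as FPKM from the values themselves, since no label or header names the unit. Per the submitters' processing notes, the tools listed are Trimmomatic 0.36 and DESeq2 1.20.0, each with no role given, beside the mouse build mm10 (GRCm38). The aligner, the quantifier and any use of strand are, in the labels and headers, not given in the sources used here. Members, gene lists, naming rule and alternatives were chosen with earlier results of these data known. The 11747 genes that reached 1 FPKM in 4 or more libraries entered a limma fit (version 3.58.1, R 4.3.3) of log2(FPKM + 1) on genotype. Variances were moderated by eBayes, robustly and with a trend on level (statmod 1.5.0). Tests were two-sided, and p-values were adjusted by Benjamini-Hochberg over all these genes, or over 17401 in the fit without a filter. The count test considered for counts could not be used on FPKM. The fit was also tested on simulated data. Outside the 9, named genes were 27 set ones, the called genes of largest change in each list (up to 4) and the 15 most alike in pattern. Genes such as Slc5a7, Chrnb2, Tubb2a, Map2, Mapt, Cplx2, Snap25, Syp, Grp, Crmp1, Kit, Msln, the collagens and others beyond that rule were named after their values were seen. Some listed genes are not reported here by name. No 2 libraries were alike enough to be duplicates: no pair shared more than 2.45% of its values. Gene positions are from GENCODE M21 (GRCm38). Alternatives were other scalings, filters, pseudocounts and variance models, a replicate block and leaving out libraries.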

Additional observations from a re-analysis of the deposited data

Results flagged for a closer look

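In groups of 4 libraries, a value was picked out where the gap between the highest or lowest library and its nearest neighbour took up nearly the whole range of the group. This happened in 11 of 190 groups examined, and chance gives about 1 in 20. In ob/ob, library 3 stood above the others for Gata3 (0.07 FPKM, the next 0.02), Dbh (0.03, the others 0), Adcyap1 (0.13, the next 0.02) and Grp (0.91, the next 0.13). Library ob/ob 1 stood below for Slc5a7 (0.04 FPKM, the next 0.27), and ob/ob 4 stood below for Crmp1 (14.52, the next 20.77). In ob/+, library 4 stood below for Elavl4 (10.57 FPKM, the next 13.18) and Map2 (30.47, the next 44.49) and above for Col3a1 (12.3, the next 8.92). Library ob/+ 3 stood below for Sox10 (1.10 FPKM against 1.16 in each of the others), and ob/+ 1 above for Sst (6081.56, the next 5540.77).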

How the results depend on the processing

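The number of genes called over the whole table, 2208, depended on the scaling. It was 3406 with upper-quartile scaling, 3429 with median centring, 5504 with acinar genes left out of the library total and 3679 with each library rescaled to the same total. The median log2 fold change of all genes, -0.07, became -0.27 and -0.23 in the last 2 of these. Leaving out 1 library at a time gave 1546 to 4955 calls, the most without ob/+ 4, and leaving out both ob/+ 4 and ob/ob 3, chosen after seeing the data, gave 5668. Calls among the other neuronal genes were between 30 and 52 over all alternatives run, against 36, and leaving out 1 library gave 30 to 43. The 52 were of 92 genes, in the fit without a filter, where the main fit tested 58. Higher calls among these genes ranged from 6, with acinar genes left out of the library total, to 14, with median centring, against 8. Glial calls, 6 in the report, were 10 with the filter of 0.5 FPKM in 2 libraries and 12 with no filter, which test more genes, and 5 to 7 with 1 library left out. The log2 fold changes of the 9 genes were negative under all alternatives run, and 10 of 180 values, in 5 genes of low level, moved by more than the spread between libraries, under the smaller pseudocounts. Of 1417 values of other named genes, 53 newly passed the threshold, 30 no longer passed and the rest kept their side. With the replicate number as a replicate block 2674 genes, 37 neuronal and 7 glial genes were called, and the call of Ppy was lost (adjusted p = 0.0537) while Adra2a was called. Libraries of the same number deviated together only weakly (r of -0.22, 0.212, 0.172 and 0.124), and 2 of the 4 numbers correlated best with themselves. With so few libraries this cannot show whether the numbers pair the samples. Absolute depth is known only from a rough estimate, which limits what can be said of values under about 0.1 FPKM.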
